A study of Mus musculus with 10 samples.

Results

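Gipr, Smtnl2, Espn, Plppr3, Trp53i11, Penk, Ndrg2, Rtn4rl2, Syt5 and Tmem74b were 10 of 46095 gene symbols counted by RNA-seq in C3H10 T1/2 cells, and 10 of the 15335 genes with enough counts to be tested. They were chosen by their RNA-seq counts, since each was well counted in static cells and at least 5-fold lower after cyclic mechanical strain, so their own fall under strain is given as a description, with no test. Taking well counted as a mean static count of at least 100, 36 genes reached that fold, and the 10 were taken from these 36. How the 10 were picked among the 36 is not given in the sources used here. The name "nearly silenced" held for Gipr, Smtnl2 and Espn, which kept under 5% of their static level, while the other 7 kept 9.49% to 17.3% of it.

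The 10 genes come from several unrelated families. Gipr encodes the receptor for the gut hormone GIP, a class B G protein-coupled receptor that raises cAMP and is known from pancreatic islets, fat and bone. Penk encodes proenkephalin, which is cut into the enkephalin opioid peptides and is also made by mesenchymal cells of developing bone and connective tissue. Rtn4rl2 encodes a Nogo receptor relative held in the membrane by a lipid anchor, and Plppr3, Syt5 and Espn are best known from neurons or sensory cells. Cyclic strain of a flexible culture surface is a standard way to load mesenchymal cells mechanically, and PIEZO1, the protein removed in the knockout cells, is a mechanically gated ion channel.

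C3H10 T1/2 is a fibroblast-like line from mouse embryos that behaves like mesenchymal progenitors, and the series concerns mechanical force, estrogen and PIEZO1 in alveolar bone. RNA-seq covered 3 libraries of cells under cyclic strain and 3 of static control cells, all plated on collagen-coated flexible silicone wells for 48 h beforehand. Strained cells were stretched by 10% at 0.5 Hz for 8 h a day over 3 days, and control cells were left static. The labels give C57BL/6 as the strain of these cells, although the line is known to derive from C3H embryos. ATAC-seq, which marks open chromatin by the insertion of adapters with a transposase, covered 2 libraries of Piezo1 knockout cells made with CRISPR/Cas9 and 2 of GFP control cells, each from nuclei of 50000 cells. The labels state neither strain nor a flexible surface for the ATAC-seq cells, and they do not say whether the knockout cells were 1 clone. Nor do they state that the replicates were cultured apart, so a p-value here reflects only how much the libraries differed from each other, which may be a technical spread.

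RefSeq start windows of the GRCm38.p6 assembly, the mm10 build, reach from 250 bases before a transcript start to 50 after it, and 7 of the 10 genes had at least 1, with 11 windows in all. Gipr, Penk and Syt5 had none in the table. The windows of 4 genes are shown, those of the 2 with the deepest fall among the 7 (Smtnl2 and Espn) and those of the genes with the largest and the smallest standard error of the fitted fold among the rest (Rtn4rl2 and Plppr3). Each runs 5′ to 3′ on the gene's strand, which is the minus strand for all 4. Capitals mark the GC box GGGCGG, a site known to bind Sp1, and the letters GCGTG, the core of the aryl hydrocarbon response element, on either strand (CCGCCC and CACGC where read in reverse). Smtnl2 lies at chr11:72411664-72411963, Espn at chr4:152152340-152152639 (the outermost of its 3 windows), Rtn4rl2 at chr2:84886643-84886942 and Plppr3 at chr10:79874585-79874884.
Smtnl2: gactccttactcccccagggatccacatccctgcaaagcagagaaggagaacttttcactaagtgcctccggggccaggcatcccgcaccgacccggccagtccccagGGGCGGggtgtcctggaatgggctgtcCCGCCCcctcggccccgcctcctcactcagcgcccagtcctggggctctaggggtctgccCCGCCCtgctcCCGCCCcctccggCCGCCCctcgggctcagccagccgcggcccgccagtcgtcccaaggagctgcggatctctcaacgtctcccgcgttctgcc
Espn: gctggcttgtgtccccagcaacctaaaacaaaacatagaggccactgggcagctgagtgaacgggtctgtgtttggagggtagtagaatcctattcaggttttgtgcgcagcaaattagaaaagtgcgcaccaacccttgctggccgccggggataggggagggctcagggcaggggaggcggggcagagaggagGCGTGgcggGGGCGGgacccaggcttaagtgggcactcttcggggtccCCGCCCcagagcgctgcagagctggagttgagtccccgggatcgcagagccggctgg
Rtn4rl2: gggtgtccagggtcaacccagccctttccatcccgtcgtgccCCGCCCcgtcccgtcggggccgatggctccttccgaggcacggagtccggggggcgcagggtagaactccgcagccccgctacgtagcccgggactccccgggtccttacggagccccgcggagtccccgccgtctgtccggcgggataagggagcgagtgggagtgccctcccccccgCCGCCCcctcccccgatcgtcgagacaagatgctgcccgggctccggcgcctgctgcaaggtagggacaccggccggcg
Plppr3: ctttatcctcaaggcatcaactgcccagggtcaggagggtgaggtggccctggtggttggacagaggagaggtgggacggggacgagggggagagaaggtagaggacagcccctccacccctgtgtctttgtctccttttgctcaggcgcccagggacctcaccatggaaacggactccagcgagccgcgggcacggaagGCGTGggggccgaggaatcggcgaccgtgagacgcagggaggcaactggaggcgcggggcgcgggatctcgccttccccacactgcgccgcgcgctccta

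The Smtnl2 window held 5 GC boxes, the Espn window 2 GC boxes and 1 GCGTG, the Rtn4rl2 window 2 GC boxes and the Plppr3 window 1 GCGTG. Over all 11 windows, the GC box was present in 8 windows of 5 genes, against 35.7% of the 32851 windows in the table. GCGTG was present in 7 windows of 5 genes, against 32.4% of all windows. The windows of Espn and of Ndrg2 belong to 1 gene each, and those of Ndrg2 partly overlap, so they are not independent. Median GC content was 62.7% over the 11 windows and 52.7% over all windows. The cAMP response element core TGACG and the AP-1 motif TGANTCA were in 0 of the 11 windows, against 20.8% and 7.81% of all windows. The TEAD motif GGAATG was found at Smtnl2 (14.7% of all windows), ACGTG, the core of the hypoxia response element, at Tmem74b (19.6%), and TATAAA at Ndrg2 (13.6%). The E-box CANNTG was in 6 of the 11 windows, from 4 of the 7 genes, against 72.3% of all windows. All motifs were searched on both strands, and an ACGTG inside CACGTG also counts as an E-box. The shares of all windows were not limited to genes tested here, and no share over those genes alone was computed. These matches describe the letters of the windows only.

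Library totals lay between 37233101 and 41024689 counts under strain and between 36150738 and 38491897 in static cells. Counts of static replicate 3 differed more from the other static libraries, and those of strain replicate 1 more from the other strain libraries, than the remaining pair in each group. The chi-square per degree of freedom with static replicate 3 was 37.5 and 59.6, against 9.19 between static replicates 1 and 2, and with strain replicate 1 it was 44.3 and 34.7, against 15.7 between strain replicates 2 and 3. Fibroblast markers summed to 36863 to 42799 CPM (counts scaled by TMM to a common library size) under strain and 61091 to 62404 CPM in static cells. Of the 7 tested, Col1a1, Col1a2, Col3a1 and Vim were called lower under strain (edgeR adjusted p under 0.05) and Ly6a higher, while Thy1 stayed under 1 CPM. Of 8 neuron markers, Rbfox3 and Snap25 were at 0 in all 6 libraries and Tubb3 alone exceeded 1 CPM on average, and the list summed to 41.5 to 56.0 CPM under strain and 38.9 to 44.0 CPM in static cells. The leukocyte markers Ptprc and Cd3e, the endothelial marker Cdh5, the glial markers Sox10 and Olig2, the muscle markers Myod1, Myog and Ckm and the epithelial marker Epcam were at 0 in all 6. The epithelial list summed to 1.15 to 2.67 CPM under strain and 6.40 to 8.49 CPM in static cells, and Cdh1, its 1 tested member, was called lower. The muscle list summed to 2.21 to 2.43 CPM under strain and 4.21 to 5.35 CPM in static cells, and the glial list to 3.54 to 4.85 CPM under strain and 5.42 to 5.91 CPM in static cells. The leukocyte list summed to 3.63 to 4.85 CPM under strain and 2.64 to 3.56 CPM in static cells, and the endothelial list to 0.793 to 1.21 CPM under strain and 0.512 to 0.927 CPM in static cells. The part of these shifts in the results was not tested. In bulk RNA, fewer cells that express a gene and less of its RNA per cell cannot be told apart.

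All 10 genes were at least 5-fold lower under strain, the property they were chosen for, which 0.313% of 11490 genes with a mean static count of at least 100 shared. Counted in the opposite direction on the strain libraries, 0.0521% of 11518 genes with a mean strain count of at least 100 (6 genes) were at least 5-fold higher. In none of the 10 did the groups overlap, and the strain libraries lay below the static libraries throughout, as they did for 17.9% of all tested genes. The plot of every library shows both groups for each gene.

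**Figure D1:**
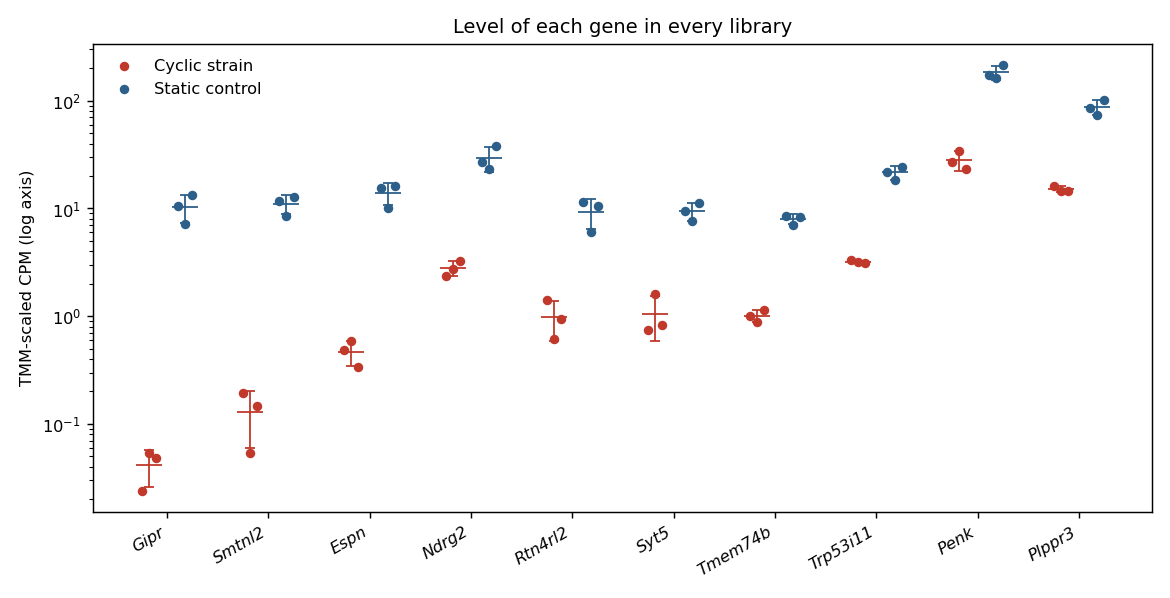
TMM-scaled CPM of each of the 10 genes (x axis) in every RNA-seq library on a log axis, with 3 cyclic strain libraries in red left of 3 static control libraries in blue. Long horizontal lines are group means and bars are 1 SD (n = 3). Strain points lie below static points for each gene, and the gap narrows from Gipr at the left to Plppr3 at the right.

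Among the hormone and peptide genes, Gipr (chr7:19156063-19170248) was counted 1, 2 and 2 times in strain replicates 1 to 3 and 404, 256 and 465 times in static replicates 1 to 3. These counts are 0.0240, 0.0535 and 0.0485 CPM under strain and 10.6, 7.19 and 13.2 CPM in static cells. All 3 strain libraries were at the limit of detection. The ratio of scaled summed counts, strain over static, was 0.00403 with an exact 95% interval of 0.00131 to 0.00943, which covers counting error only, since reads carry no molecular identifiers. The log2 fold change fitted by edgeR, strain over static, was -7.85 (standard error, SE, 0.40), and -6.79 with a prior count of 2, so its size depends on how 1 or 2 reads are treated.

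Penk (chr4:4133536-4138815), with 5845 to 7506 reads per static library, had 26.7, 34.3 and 23.1 CPM in strain replicates 1 to 3 and 173, 164 and 214 CPM in static replicates 1 to 3. It stayed well detected under strain, at 952 to 1285 reads per library, and its highest strain library was at 0.209 of its lowest static one. The mean was 28.0 ± 5.75 CPM under strain and 184 ± 26.3 CPM in static cells (SD, n = 3 each), a log2 fold change of -2.71 (SE 0.16).

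Rtn4rl2 (chr2:84871297-84888641), the receptor-like gene of the Nogo family, had 1.42, 0.615 and 0.945 CPM in strain replicates 1 to 3 and 11.5, 6.10 and 10.5 CPM in static replicates 1 to 3. It came closest to overlap among the 10, with its highest strain library at 0.232 of its lowest static library. Its log2 fold change was -3.22 (SE 0.32), between -3.57 without strain replicate 1 and -2.99 without strain replicate 2. Counts were 59, 23 and 39 under strain and 439, 217 and 369 in static cells.

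Smtnl2 and Espn act on the actin cytoskeleton. Smtnl2 (chr11:72389163-72411713), which encodes a smoothelin-like protein with a calponin homology domain, was counted 8, 2 and 6 times in strain replicates 1 to 3 and 451, 306 and 449 times in static replicates 1 to 3. This gave 0.192, 0.0535 and 0.145 CPM under strain and 11.8, 8.60 and 12.8 CPM in static cells. The strain level was a few reads in every library, at 1.18% of the static mean. The log2 fold change was -6.35 (SE 0.33), or 81.4-fold lower.

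Espn (chr4:152120331-152152414) encodes espin, which bundles actin filaments in the stereocilia of hair cells and in microvilli. It had 0.480, 0.588 and 0.339 CPM in strain replicates 1 to 3 and 15.4, 10.2 and 16.2 CPM in static replicates 1 to 3, from 14 to 22 reads per strain library and 363 to 589 per static library. All 3 strain libraries lay far below the lowest static one. The strain mean was 3.37% of the static mean, and the log2 fold change was -4.89 (SE 0.27), or 29.6-fold lower. A pseudogene inside the Espn body, Gm17852, had 0 reads under strain and 23 in static cells over the 3 libraries of each group.

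Syt5, Tmem74b and Plppr3 encode membrane proteins. Syt5 (chr7:4539765-4547541), a synaptotagmin that senses calcium in vesicle release, had 0.745, 1.60 and 0.824 CPM in strain replicates 1 to 3 and 9.41, 7.64 and 11.1 CPM in static replicates 1 to 3. Strain replicate 2 stood above the other strain libraries, and the log2 fold change of -3.16 (SE 0.29) was -3.58 without it. Tmem74b (chr2:151701805-151716745), a membrane protein gene named for its similarity to Tmem74, had 1.01, 0.882 and 1.14 CPM under strain and 8.49, 7.05 and 8.42 CPM in static cells. Its spread was small in both groups, and the log2 fold change was -2.98 (SE 0.20). Plppr3 (chr10:79860475-79874958), a phospholipid phosphatase relative known from growing axons, had 16.2, 14.6 and 14.5 CPM in strain replicates 1 to 3 and 86.2, 74.1 and 102 CPM in static replicates 1 to 3. It kept the largest share of its static level among the 10, at 17.3%, with a log2 fold change of -2.53 (SE 0.14).

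Ndrg2 and Trp53i11 are named for regulators of growth. Ndrg2 (chr14:51905271-51914004), a member of the NDRG family that MYC is known to repress, had 2.35, 2.75 and 3.25 CPM in strain replicates 1 to 3 and 26.9, 23.4 and 37.8 CPM in static replicates 1 to 3. Static replicate 3 was its highest library. The log2 fold change of -3.40 (SE 0.21) was -3.17 without that library and -3.06 without both static replicate 3 and strain replicate 1. Trp53i11 (chr2:93187349-93201757), a gene named as p53-inducible, had 3.29, 3.15 and 3.13 CPM under strain and 22.0, 18.3 and 24.5 CPM in static cells. Its strain libraries lay within 1.05 times of each other, the tightest of the 10, and its log2 fold change was -2.76 (SE 0.15).

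The static libraries ordered the 10 genes alike. Static replicate 2 was the lowest static library for 10 of the 10, as it was for 35.9% of all tested genes, and static replicate 3 was the highest for 8 of the 10, against 41.4% of all tested genes. Strain replicates 1, 2 and 3 were the highest strain library for 4, 4 and 2 of the genes and the lowest for 3, 3 and 4. The coefficient of variation among static libraries ran from 10.2% for Tmem74b to 30.6% for Rtn4rl2, and among strain libraries from 2.76% for Trp53i11 to 54.1% for Smtnl2, which rests on few reads. The fitted fold stayed at 5 or more for all 10 when any 1 library was left out and when static replicate 3 and strain replicate 1 were left out together, a setting added after the data were seen. At the threshold, Plppr3 was 5.79-fold lower, while Fam71f2, Fmod and Mgarp lay just outside at 4.99-fold, 4.59-fold and 4.40-fold lower. Median log2 fold change was -3.19 over the 10 and 0.00488 over all tested genes.

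**Figure D2:**
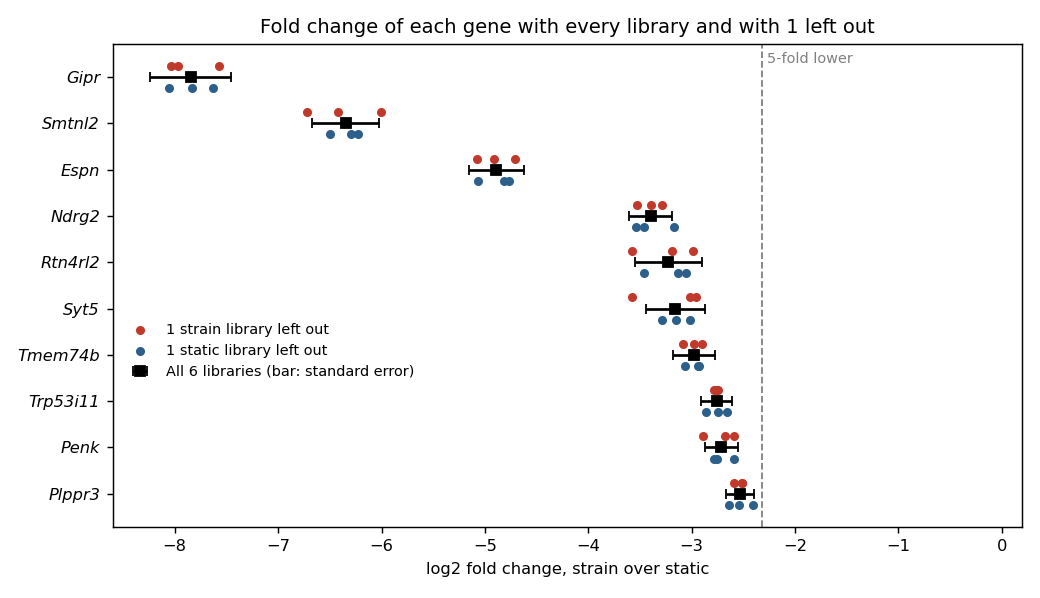
Fitted log2 fold change, strain over static, of each of the 10 genes (rows): black squares use all 6 libraries with 1 standard error, red points leave out 1 strain library and blue points 1 static library. The dashed line marks 5-fold lower, and each point lies to its left. Gipr spans -8.05 to -7.58 and Plppr3 -2.64 to -2.41 over the points with 1 library left out.

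Genes with a similar pattern across the 6 libraries were sought by Pearson correlation of log2 CPM with the mean centred profile of the 10. The closest outside the 10 were Bgn, Hook2, Dpf1, Ddah1 and Egln1, with r of 0.998 to 0.999 over 6 libraries that fall into 2 groups. Their log2 fold changes were -0.31, -0.37, -2.55, -0.59 and -1.28, and Bgn was not called (edgeR adjusted p = 0.0553). The correlation takes no account of the size of a difference. Dpf1 had 2.55, 2.73 and 2.74 CPM under strain and 15.4, 12.7 and 18.7 CPM in static cells and was itself among the 26 other genes at least 5-fold lower.

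Relatives and pathway partners of the 10 genes were not used in the choice of the 10. Their lists were chosen with earlier results of these data known, so the shares below are not independent of the data. The 9 lists held 263 genes, of which 187 were tested. Of these, 23 were called lower and 27 higher at an edgeR adjusted p under 0.05, which is 12.3% and 14.4%, against 7.39% and 5.94% of all tested genes (13.3% in either direction). In all 50, already selected by their calls, the strain and static libraries did not overlap, as happened downward in 17.9% and upward in 17.4% of all tested genes. At an unadjusted edgeR p under 0.05 there were 77 of the 187. The share of all tested genes at that level was not counted, so this number has no background. The other 76 genes were too low to be tested. The plot of related genes gives each list.

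**Figure D3:**
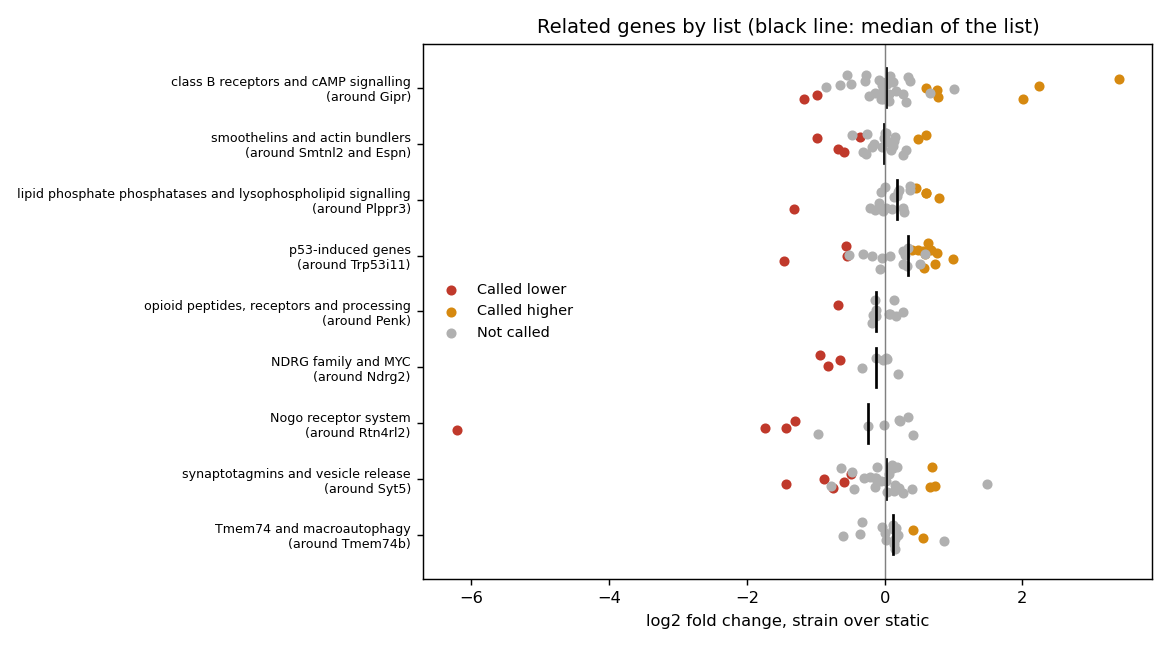
Fitted log2 fold change, strain over static, of the 187 tested relatives and partners (points) in 9 lists (rows), coloured by the edgeR call, with a black line at the median of each list. The 10 genes themselves are not plotted. List medians lie between -0.24 and 0.34, and Lingo3 at -6.22 and Glp2r at 3.41 are the extremes.

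Around Gipr, 36 class B receptor and cAMP genes were tested, of which 2 were called lower and 6 higher. GIP itself, Gcg and the receptors Glp1r and Gcgr had 2 reads under strain and 5 in static cells in all, so neither the ligand nor the closest receptors were detectable at this depth beyond 2 reads in a library. Glp2r, the receptor for the gut hormone GLP-2, moved opposite to Gipr and rose to 2.77 ± 0.415 CPM under strain, against 0.260 ± 0.148 CPM in static cells (SD, n = 3 each, log2 fold change 3.41, SE 0.39, edgeR adjusted p = 4.44e-04). Pth1r, the parathyroid hormone receptor of bone cells, fell by 1.16 on the log2 scale (SE 0.15, edgeR adjusted p = 9.46e-04), to 8.68 ± 1.34 CPM under strain against 19.5 ± 2.18 CPM in static cells (SD, n = 3 each). Adcy1, an adenylyl cyclase, rose by 0.76 (SE 0.13, edgeR adjusted p = 0.00481). Gnas, which encodes the stimulatory G protein and had the highest CPM of the list, was at -0.06 (SE 0.12, edgeR adjusted p = 0.794). Without strain replicate 2, 1 gene of the list was called lower.

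Of 24 tested smoothelins and actin bundlers, 4 were called lower and 2 higher. Smtn, the smoothelin of contractile cells, fell to 131 ± 3.83 CPM under strain, against 209 ± 14.5 CPM in static cells (SD, n = 3 each, log2 fold change -0.68, SE 0.10, edgeR adjusted p = 0.00153). Eps8, which caps and bundles actin, rose by 0.60 (SE 0.12, edgeR adjusted p = 0.00806). Actn3, an alpha-actinin, fell by 0.98 (SE 0.22, edgeR adjusted p = 0.0161), a call lost without strain replicate 3. Cnn2, a calponin and the list's gene of highest CPM, fell by 0.58 (SE 0.14, edgeR adjusted p = 0.0196). The list had 2 lower calls without strain replicate 3, and 1 higher call without strain replicate 2, strain replicate 3 or static replicate 1. The nearest relatives, Smtnl1 and Espnl, were too low to test, with at most 1 and 9 reads in a library.

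Of 21 tested lipid phosphate phosphatases and lysophospholipid signalling genes, 1 was called lower and 4 higher. Lpar1, a lysophosphatidic acid receptor, rose to 80.7 ± 4.40 CPM under strain, against 53.2 ± 4.16 CPM in static cells (SD, n = 3 each, log2 fold change 0.60, SE 0.10, edgeR adjusted p = 0.00406). Plpp3, a lipid phosphate phosphatase, rose by 0.60 (SE 0.12, edgeR adjusted p = 0.0109), a call lost without static replicate 1. Plpp7 was called lower at -1.31 (SE 0.34, edgeR adjusted p = 0.0299), and that call was lost without strain replicate 1, strain replicate 2, static replicate 2 or static replicate 3, and without both static replicate 3 and strain replicate 1. Higher calls numbered 2 without strain replicate 2 or 3 and 1 without static replicate 1. Enpp2, which makes lysophosphatidic acid outside the cell and had the list's highest CPM, was at 0.13 (SE 0.10, edgeR adjusted p = 0.422). Of the closest relatives of Plppr3, Plppr2 was at -0.21 (SE 0.13, edgeR adjusted p = 0.294), and Plppr1, Plppr4 and Plppr5 had 0 reads under strain and 3 in static cells in all.

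The list around Trp53i11 held 26 genes tied to p53, not all of them p53-induced, since Trp53 itself (0.27, not called) is among them. All 26 were tested, and 10 were called higher and 3 lower, so that most calls of this list ran opposite to Trp53i11. Aen, an exonuclease of apoptosis, rose by 0.73 (SE 0.11, edgeR adjusted p = 0.0026), Ccng1, a cyclin induced by p53, by 0.68 (SE 0.11, edgeR adjusted p = 0.00351) and Gtse1, a p53-regulating protein of dividing cells, by 0.76 (SE 0.13, edgeR adjusted p = 0.00484). Plk2, a kinase and the gene of highest CPM in the list, fell to 358 ± 42.6 CPM under strain, against 527 ± 23.0 CPM in static cells (SD, n = 3 each, log2 fold change -0.56, SE 0.11, edgeR adjusted p = 0.00896). Higher calls numbered 6 without strain replicate 2 and 5 without static replicate 1, and lower calls 1 without strain replicate 3.

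Of 11 tested opioid peptide, receptor and processing genes, Ackr3 alone was called. Ackr3, a chemokine receptor that also binds opioid peptides, fell by 0.68 (SE 0.12, edgeR adjusted p = 0.00383), to 12.5 ± 0.851 CPM under strain against 20.1 ± 0.401 CPM in static cells (SD, n = 3 each). The 4 opioid receptor genes had 9 reads under strain and 19 in static cells in all, and the precursors Pdyn, Pomc and Pnoc had 6 reads under strain and 1 in static cells, so Penk was the only opioid precursor of this list above the detection limit. Ctsl, a protease that can process proenkephalin, was at 0.08 (SE 0.11, edgeR adjusted p = 0.682).

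Of 9 tested genes of the NDRG family and the MYC network, 3 were called lower and 0 higher. Ndrg1, a relative of Ndrg2 known to respond to stress and low oxygen, fell to 291 ± 32.0 CPM under strain, against 517 ± 53.7 CPM in static cells (SD, n = 3 each, log2 fold change -0.83, SE 0.12, edgeR adjusted p = 0.00169). Mxi1, a MYC antagonist, fell by 0.95 (SE 0.11, edgeR adjusted p = 4.11e-04). Mxd4, another, fell by 0.64 (SE 0.17, edgeR adjusted p = 0.0317), a call lost without strain replicate 3 or any 1 of the static libraries. Ndrg3 at -0.12, Ndrg4 at -0.03 and Myc at 0.04 were not called.

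Of 11 tested genes of the Nogo receptor system and its leucine-rich repeat relatives, 4 were called lower and 0 higher. Lingo3, a relative of the Nogo co-receptor Lingo1, had 2, 4 and 0 reads in strain replicates 1 to 3 and 198, 109 and 128 in static replicates 1 to 3. It fell about as far as Smtnl2, with a log2 fold change of -6.22 (SE 0.53, edgeR adjusted p = 8.48e-05), and is 1 of the 26 other genes at least 5-fold lower. Lgi2, a secreted leucine-rich repeat protein, fell by 1.73 (SE 0.12, edgeR adjusted p = 2.13e-05) and Tnfrsf19, a co-receptor of the Nogo receptor, by 1.31 (SE 0.13, edgeR adjusted p = 2.17e-04). Lingo1 itself was also called lower, at -1.44 (SE 0.33, edgeR adjusted p = 0.0179), a call lost without static replicate 1. Ptprs, a receptor phosphatase and the gene of highest CPM in the list, was at 0.34 (SE 0.16, edgeR adjusted p = 0.181). The Nogo ligand Rtn4 was at 0.22 and was not called, and the myelin ligands Omg and Mag had 0 reads under strain and 8 in static cells. Without static replicate 2, 1 gene of the list was called higher.

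Of 33 tested synaptotagmins and vesicle release genes, 5 were called lower and 3 higher. Unc13a, which primes vesicles for release, fell by 1.43 (SE 0.22, edgeR adjusted p = 0.00253), to 4.84 ± 1.28 CPM under strain against 13.0 ± 2.86 CPM in static cells (SD, n = 3 each). Stx3, a syntaxin, rose by 0.73 (SE 0.11, edgeR adjusted p = 0.0026), and Sytl2, a synaptotagmin-like protein, by 0.69 (SE 0.12, edgeR adjusted p = 0.00456). Esyt1, which tethers the endoplasmic reticulum to the plasma membrane and had the list's highest CPM, was at -0.05 (SE 0.10, edgeR adjusted p = 0.769). Lower calls numbered 2 without strain replicate 2 and 3 without strain replicate 3 or any 1 static library.

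Of 16 tested autophagy genes around Tmem74b, 0 were called lower and 2 higher. These were Sqstm1, an autophagy receptor, at 0.55 (SE 0.12, edgeR adjusted p = 0.0153), and Atg7, an enzyme of autophagosome formation, at 0.41 (SE 0.12, edgeR adjusted p = 0.0447). Neither call held without strain replicate 3 or static replicate 1, and 1 of them was left without strain replicate 2 or static replicate 2. Tmem74 itself was at 0.86 (SE 0.57, edgeR adjusted p = 0.339), at 1.27 ± 0.737 CPM under strain and 0.692 ± 0.526 CPM in static cells (SD, n = 3 each). Without static replicate 2, 1 gene of the list was called lower.

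The 10 genes lie on 6 chromosomes, the closest pair, Rtn4rl2 and Trp53i11, 8.3 Mb apart on chromosome 2. Within 100 kb of their bodies lay 53 other tested genes, of which 12 were called lower and 4 higher. These shares of 22.6% and 7.55% stand beside 7.39% and 5.94% of all tested genes. In all 16, which were already selected by their calls, the strain and static libraries did not overlap, a separation seen downward in 17.9% and upward in 17.4% of all tested genes. At an unadjusted edgeR p under 0.05 there were 22 of the 53, again without a share of all tested genes to set beside it. Neighbours are not independent of one another, and 14 of the 53 belong to Plppr3. Without these 14, a choice made after the values were seen, 7 of 39 (17.9%) were called lower and 4 (10.3%) higher. The median abundance of the neighbours, 4.02 in average log2 CPM, was near the 4.25 of all tested genes.

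Near Plppr3, Prtn3, which encodes the neutrophil proteinase 3, lay 4709 bp away and fell to 0.704 ± 0.155 CPM under strain, against 6.18 ± 1.99 CPM in static cells (SD, n = 3 each, log2 fold change -3.13, SE 0.29, edgeR adjusted p = 1.39e-04). Prtn3, at 8.77-fold lower, was itself among the 26 other genes at least 5-fold lower. Fstl3, a secreted antagonist of activins, fell by 1.07 (SE 0.13, edgeR adjusted p = 6.86e-04), Rnf126, a ubiquitin ligase, by 0.76 (edgeR adjusted p = 0.00313), Prss57, a serine protease, by 1.15 (edgeR adjusted p = 0.0375) and Palm, a membrane-shape protein, by 0.37 (edgeR adjusted p = 0.03). The calls of Prss57 and Palm were lost without strain replicate 2, strain replicate 3 or static replicate 1, and that of Prss57 also without static replicate 3. Ptbp1, a splicing regulator on the opposite strand whose body overlaps that of Plppr3 by 3961 bp, was at 0.08 (SE 0.10, edgeR adjusted p = 0.597), with 297 ± 15.5 CPM under strain and 280 ± 15.2 CPM in static cells. How reads in the overlap were assigned is not given in the sources used here, so the level of Plppr3 is uncertain to that extent.

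Near Smtnl2, Spns2, a sphingosine-1-phosphate transporter 39925 bp away, fell by 3.38 (SE 0.43, edgeR adjusted p = 8.04e-04), to 0.219 ± 0.127 CPM under strain against 2.30 ± 0.141 CPM in static cells (SD, n = 3 each). Tspan18, a tetraspanin whose body begins 3 bp from that of Trp53i11, fell to 20.9 ± 3.30 CPM under strain, against 48.4 ± 0.875 CPM in static cells (SD, n = 3 each, log2 fold change -1.21, SE 0.13, edgeR adjusted p = 2.55e-04). Beside Espn, Tnfrsf25, a death receptor 212 bp away, fell by 0.91 (edgeR adjusted p = 0.00628), and Plekhg5, a guanine nucleotide exchange factor, by 0.55 (edgeR adjusted p = 0.00656). Near Gipr, Six5, a homeobox gene, fell by 0.61 (edgeR adjusted p = 0.00866) and Dmpk, a kinase, by 0.50 (edgeR adjusted p = 0.0313), the call of Dmpk being lost without strain replicate 2, static replicate 1 or static replicate 3. Near Syt5, Tnnt1, a troponin, fell by 1.78 (edgeR adjusted p = 0.0193), a call lost without strain replicate 3 or static replicate 3.

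The 4 neighbours called higher were Qpctl (0.49) and Opa3 (0.52) near Gipr, Slc43a3 (0.55) near Rtn4rl2 and Rdh13 (0.54) near Syt5, with edgeR adjusted p between 0.0172 and 0.0335. Of these 4 calls 1 was left without strain replicate 2, 0 without strain replicate 3 or static replicate 1, 3 without static replicate 2 and 2 without static replicate 3. Psmf1, a proteasome inhibitor on the opposite strand that overlaps Tmem74b by 684 bp, was at -0.03 (edgeR adjusted p = 0.878). None of the 5 tested neighbours of Ndrg2 was called by edgeR, and Penk had 0 tested neighbours within 100 kb. The plot of neighbours shows fall and distance side by side.

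**Figure D4:**
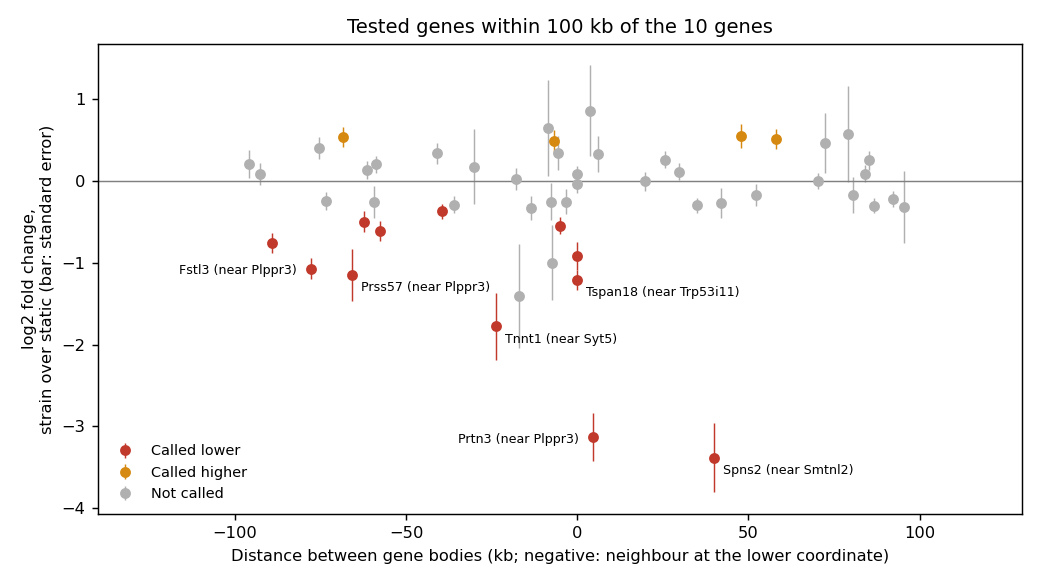
Fitted log2 fold change, strain over static, with 1 standard error (y axis) of the 53 tested genes within 100 kb of the 10 genes, against the distance between gene bodies in kb (x axis, negative where the neighbour lies at the lower coordinate). Colours give the edgeR call, and neighbours called more than 1 log2 unit lower are named. The 2 lowest points, Spns2 and Prtn3, lie near Smtnl2 and Plppr3.

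Open chromatin around the 10 genes was read from the ATAC-seq peak lists of Piezo1 knockout and GFP control cells, which are other cells than those strained. A peak was no condition of the choice of genes. The lists held 15980 and 13610 peaks in knockout replicates 1 and 2 and 15978 and 26652 peaks in GFP replicates 1 and 2. A peak lay within 5 kb of the gene body for 0 of the 10 genes in both knockout lists and in GFP replicate 1, and for 2 of the 10, Gipr and Smtnl2, in GFP replicate 2. Of 14913 tested genes with a position, 63.4% and 61.9% had such a peak in knockout replicates 1 and 2, and 61.0% and 76.0% in GFP replicates 1 and 2. With 2 lists a group and no read depth, knockout and GFP cells were not tested against each other. No region near the 10 genes was in both lists of 1 group and in neither of the other. Counted by whole genes, 0 of the 10 had a peak within 5 kb in both lists of 1 group and none in the other. Of the tested genes with a position, 0.449% did so for knockout and 3.53% for GFP. The share by region was not computed over all genes.

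Genes of like abundance usually had a peak nearby. In any of the 4 lists, 2 of the 10 had a peak nearby, against 78.4% of all tested genes. The share was 87.3% for the 8780 other genes in the same range of average log2 CPM, 2.18 to 6.73. Most of the 10 lay between 2 and 4, where it was 75.7% of tested genes. In all 4 lists 0 of the 10 had one, against 51.1% of all tested genes. Among the 26 other genes at least 5-fold lower, 11 (42.3%) had a peak nearby in any list. Of genes with a position, 69.0% of the 1107 called lower with the 10 left out did so. The share was 81.8% for the 906 called higher and 79.0% for the 12890 not called. The 10 genes were somewhat shorter, with a median body of 14446.5 bp against 19617 bp over all tested genes, and the part of length in these shares was not tested. Of the 7 genes with a start window, 1 had a peak over it, Smtnl2 in GFP replicate 2. Of 10520 tested genes with a start window, 50.5% and 49.8% had one in knockout replicates 1 and 2. The shares were 45.9% and 62.9% in GFP replicates 1 and 2, and 66.3% in any list. Of the other genes at least 5-fold lower, 18 had a start window, and 3 of these (16.7%) had a peak over it in any list. So did 46.4% of 755 genes called lower with the 10 left out.

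**Figure D5:**
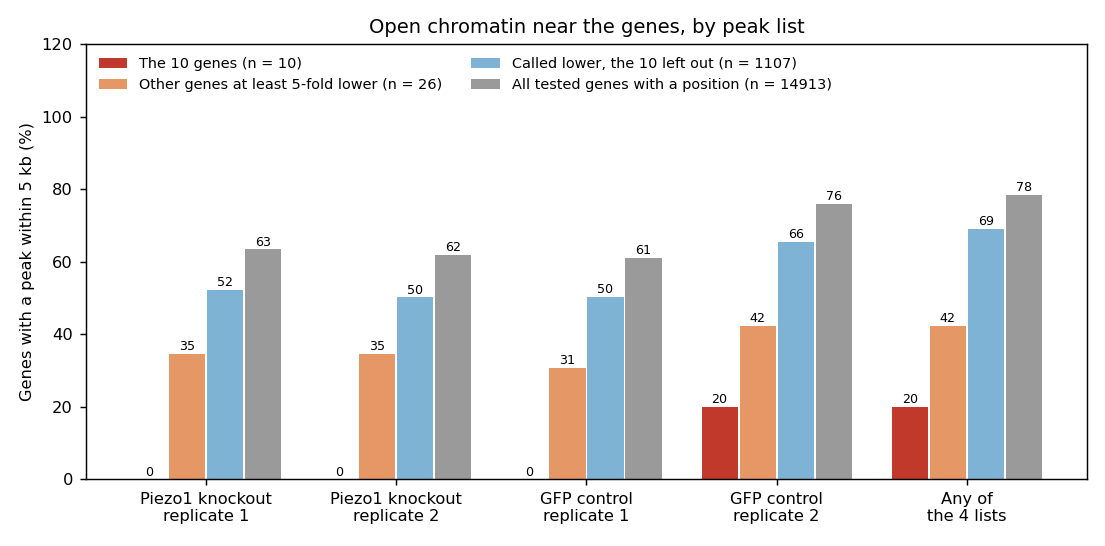
Percentage of genes with an ATAC-seq peak within 5 kb of the gene body (y axis) in each of the 4 peak lists and in any of them (x axis), with knockout lists left of GFP lists. Bars show the 10 genes, the 26 other genes at least 5-fold lower, the 1107 genes called lower that had a position, without the 10, and all 14913 tested genes with a position. The bar of the 10 genes is at 0 in 3 lists and at 20% in GFP replicate 2.

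The 3 peaks found were all in the longest list. Gipr had peaks at chr7:19155915-19156290 and chr7:19156351-19156606, 376 and 256 bp long, at the lower-coordinate end of its body, with the authors' fold enrichment of 7.26 and 5.68 over local background. Smtnl2 had a 215-bp peak at chr11:72411468-72411682, 31 bp inside its start and overlapping the end of the window printed above, with a fold enrichment of 3.50 and a −log10 q of 3.83. The nearest peak to Gipr in the other 3 lists lay 6.25 to 6.30 kb from its body, and to Smtnl2 29.6 to 55.5 kb. Plppr3 lay just beyond the 5 kb limit, with its nearest peak at 5.56 to 5.67 kb in the 4 lists. For the rest, the nearest peak was at 10.7 to 10.8 kb for Rtn4rl2, 20.0 to 20.1 kb for Ndrg2, 25.4 to 33.4 kb for Espn, 9.13 to 37.7 kb for Syt5, 15.5 to 138 kb for Trp53i11, 24.2 to 159 kb for Tmem74b and 41.3 to 194 kb for Penk.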

How the data were processed

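RNA-seq and ATAC-seq files were used as deposited. The submitters' processing notes name Trim Galore 0.6.5 and mm10 for both assays, STAR, HTSeq and DESeq2 for RNA-seq, and Bowtie2 2.4.2 and MACS2 for ATAC-seq. Other versions, gene annotation, strand setting and peak threshold were not given in the sources used here, so reads of overlapping genes on opposite strands may not be told apart. The authors deposited raw counts by gene symbol, 36150738 to 41024689 per RNA-seq library, and an ATAC-seq peak list for each library, unpooled. The authors' peak columns used here are a fold enrichment (a ratio to local background) and −log10 p and q values. The labels' protocols name a full-length single-cell amplification kit for the cDNA and paired reads of 150 bases.

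Counts were tested two-sided with edgeR 4.0.16 (glmQLFit, glmQLFTest, Benjamini-Hochberg over all 15335 genes left by filterByExpr, TMM scaling, called at adjusted p under 0.05) in R 4.3.3, with limma 3.58.1 and DESeq2 1.42.0 as alternatives. Standard errors are the absolute log2 fold change over the square root of F, and the fitted fold used edgeR's default prior count. Peaks, windows and motifs were handled in Python 3.11.15 with pandas 2.3.3 and numpy 2.4.6. Peaks were joined at an overlap of 1 bp. Of 46095 symbols, 41483 matched a RefSeq symbol and 1112 a synonym of GRCm38.p6, and 14913 of 15335 tested genes had a position. The 10 genes and all gene lists were chosen with earlier results of these data known. Named relatives were every called gene of a list with 3 or fewer calls, otherwise the 3 with the smallest adjusted p, plus the gene of highest mean CPM, and named neighbours were every called or overlapping one. Plppr1, Plppr2, Plppr4, Plppr5, Smtnl1, Espnl, Trp53, Ndrg3, Ndrg4, Myc, Lingo1, Rtn4, Tmem74 and the ligands and receptors of Gipr and Penk were named beside these after their values were seen. The alternatives were other scalings, no low-count filter, other tools, each library left out, the replicate number as a block, other windows and a stricter peak q.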

Additional observations from a re-analysis of the deposited data

How the results depend on the processing

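All 10 genes stayed at least 5-fold lower under every alternative scaling, filter, tool and left-out library tried. For the relatives, lower calls stayed within 1.5 times of 23 and the higher calls ran from 15 to 29 with 1 library left out (17 without strain replicate 2 or 3, 15 without static replicate 1). For the neighbours, lower calls were 9 to 12 and higher calls 0 to 5 with 1 library left out, and 8 higher calls appeared without both static replicate 3 and strain replicate 1, an alternative added after the data were seen. A window of 50 kb held 29 neighbours, 7 lower (24.1%) and 2 higher (6.9%). One of 250 kb held 132, 23 lower (17.4%) and 8 higher (6.06%). At 100 kb the shares were 22.6% and 7.55%, so the lower share was smallest in the widest window. Over all genes, 1134 were called lower and 911 higher, against 935 and 1169 with library size alone, 1574 and 1428 with no filter and 1614 and 1512 without the 2 libraries just named. With 1 library left out they ran from 577 to 1244 lower and from 369 to 1085 higher, dropping by more than 1.5 times without strain replicate 2 (661 lower, 420 higher), strain replicate 3 (577 lower, 404 higher) or static replicate 1 (610 lower, 369 higher). The sign of 3 uncalled genes turned. With 1 library left out, Gnas ran from -0.126 to 0.0418 (0.0209 without strain replicate 1 and 0.0418 without static replicate 3), Ctsl from -0.0148 (without strain replicate 1) to 0.138 and Esyt1 from -0.0956 to 0.0109 (without strain replicate 1). Without both of those libraries Gnas was at 0.118 and Esyt1 at 0.0042. Whether replicate numbers pair the libraries is not settled here. Correlations of same-numbered deviations were 0.0278, 0.208 and 0.0943. Strain replicates 2 and 3 lay closest to the static library of the same number, and strain replicate 1 to static replicate 3 (0.0905). With the replicate block, 10 of the 10 genes stayed 5-fold lower, 29 relatives were lower and 33 higher, 14 neighbours lower and 5 higher, and 1619 of all genes lower and 1557 higher. Around the 10 genes, peaks with a −log10 q of at least 5 left 1 gene with a peak in any list, while a 10 kb window gave 4 genes in any list, 2 in every list and 2 regions in every list. Leaving out 1 peak list gave 0 to 2 genes with a peak in any list (0 without GFP replicate 2) and 0 to 3 regions in GFP lists alone (3 without GFP replicate 1). For none of these peak settings was the share over all tested genes computed, so these counts have no background. The cause of these shifts was not tested. Strain levels of Gipr and Smtnl2 rest on 5 and 16 reads in all, and ATAC-seq depth is unknown.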
